A study of Mus musculus with 24 samples.

Results

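Ku70-/- mouse embryonic fibroblasts were compared 24 hr after damage induction by the oxidizing agent potassium bromate (KBrO3) in the presence of bisphenol A (BPA) with untreated cells of the same line. The comparison rests on 6 of the 24 arrays of the series: the 3 arrays labelled as KBrO3 with BPA at 24 hr, called co-exposed here, and the 3 arrays of untreated cells from the same set of 15 arrays. All members were taken by label and none by a measured value. Co-exposed cells had been given 150 μM BPA for 1 hr, 20 mM KBrO3 with BPA for 1 hr, and, after a wash, BPA in fresh medium for a further 23 hr. The study calls the cells a cell line. Every group lacks Ku70, a subunit of the heterodimer that holds broken DNA ends for nonhomologous end joining. No array of Ku70-proficient cells was used here. Untreated cells carried the label of the 4-hr time point, so that time in culture and treatment cannot be told apart. BPA was dissolved in ethanol, and the labels give no solvent for the untreated cells. Also used are 3 arrays of KBrO3 alone at 24 hr and 3 of the co-exposure at 4 hr, both from the same set, and 6 arrays from a second set, 3 of BPA alone at 24 hr and 3 of its own untreated cells.

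KBrO3 is an oxidant that forms 8-oxoguanine in DNA, a lesion removed by base excision repair, and BPA is a plastics monomer that binds estrogen receptors weakly. Cells answer oxidants through NRF2, a transcription factor that raises glutathione and thioredoxin enzymes, and answer DNA damage through p53, which raises genes of cell cycle arrest and death. The integrated stress response, a further program, works through the transcription factor ATF4, which raises genes of amino acid supply.

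RNA was measured with 60-base probes on 1-color arrays. Levels below are log2 signal minus the 75th percentile of the same array, so that a level of 0 is a bright probe, and they are compared only within a probe. Differences are log2 differences between group means with the standard error of the limma fit over the 15 arrays, and p-values are Benjamini-Hochberg adjusted over all probes tested. A gene was called altered where its Bonferroni-adjusted p was below 0.01 and it differed by more than 1.5-fold. Among pairs of arrays of the same group the correlation over probes was 0.993 to 0.996 in co-exposed and 0.994 to 0.995 in untreated cells, against 0.947 to 0.950 between the groups. Probes well above background made up 57.7% to 60.2% of spots on the co-exposed and 62.9% to 65.1% on the untreated arrays. Slides differed between the groups: untreated arrays lay on slides 1 and 2, the co-exposed arrays of replicates 1 and 2 on slide 4 and that of replicate 3 on slide 5, so the slide cannot be told apart from the treatment here. Scaling to the array median in place of the 75th percentile raised every difference from untreated cells by 0.32, and changes below are given relative to the 75th percentile. The signal for Xrcc6, the gene of Ku70, was 0.023, 0.058 and 0.21 in untreated and 0.57, 0.46 and 0.51 in co-exposed cells, which does not check the label, since its probe may lie outside the deleted part.

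Markers of fibroblasts fell. Of 12 such markers, 10 were lower in co-exposed cells and 1, Fap, was higher, and their summed linear signal relative to the 75th percentile went from 1851 to 1960 on the untreated arrays to 494 to 574 on the co-exposed arrays. Thy1, a surface marker of fibroblasts, was not well above background on any co-exposed array. The summed signal of 6 leukocyte markers was 0.262 to 0.341 in untreated and 0.517 to 0.581 in co-exposed cells, with Ptprc, the pan-leukocyte marker, not well above background on any co-exposed array and Cd68, a lysosomal protein of macrophages, at 1.87. The sum of 5 adipocyte markers went from between 44.1 and 49.9 to between 13.0 and 14.1, with Fabp4 as the 1 member called lower. That of 4 chondrocyte markers went from between 8.63 and 9.67 to between 1.78 and 2.14, with the cartilage collagen Col2a1 lower at -2.88 and the transcription factor Sox9 higher at 1.39. That of 5 skeletal muscle markers went from between 0.479 and 0.600 to between 0.0719 and 0.174, with no member called and Acta1 as the 1 marker measured on every array. The part of any of these in the results was not tested, and in bulk RNA fewer cells of a kind and less RNA per cell cannot be told apart.

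Of 13162 protein-coding genes tested, 3452 (26.2%) were altered, 1599 (12.1%) higher and 1853 (14.1%) lower in co-exposed cells. Decreases were larger than increases: 1304 genes were lower and 699 higher by more than 2-fold, and 139 were lower and 24 higher by more than 10-fold. With array medians in place of the 75th percentile 68.0% of the altered genes were higher, against 46.3% here, and with scaling to the spike-in probes 27.0% were. The 3 co-exposed levels did not overlap the 3 untreated levels in 76.5% of all genes tested, above in 36.4% and below in 40.1%, a share against which each statement below on separate levels should be read. The median difference over all genes was -0.034, and 0.28 with scaling to the median. It was -0.041 with spike-in scaling, where the differences hardly shifted and 1437 genes were called.

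**Figure D1:**
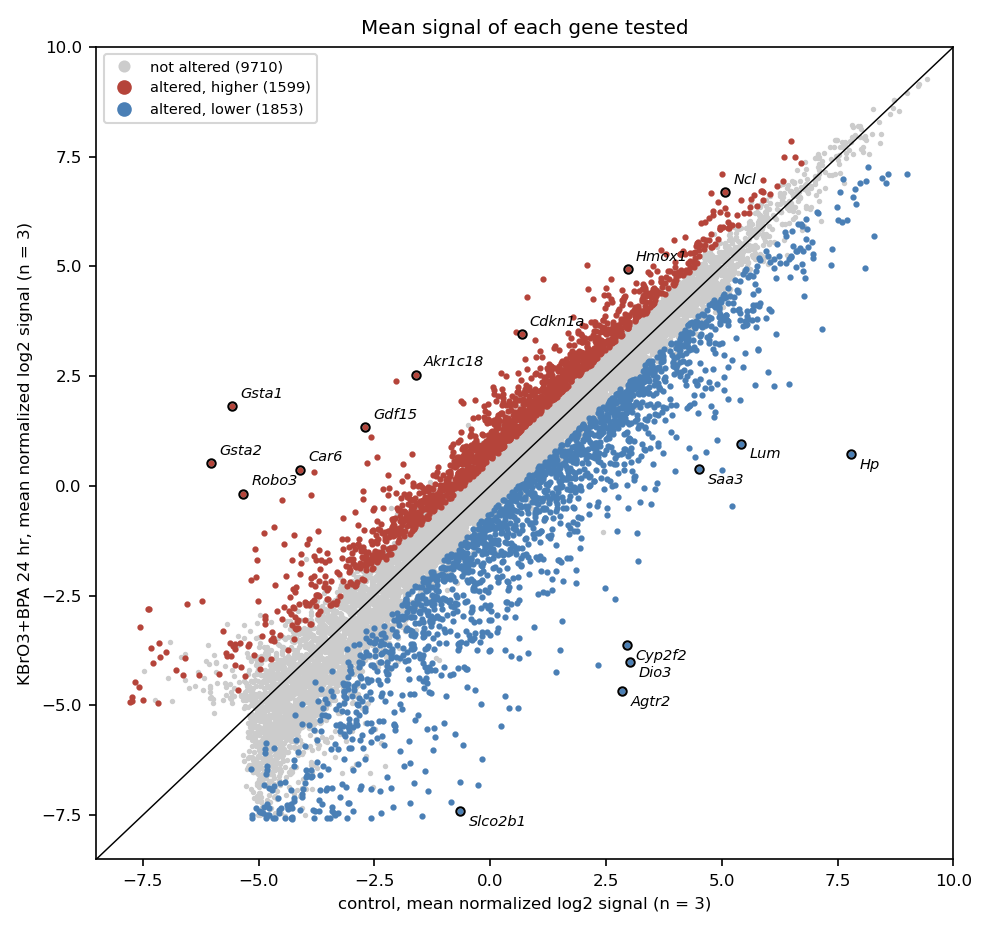
Mean log2 level of each gene tested in untreated cells (x axis) and in cells co-exposed to KBrO3 and BPA at 24 hr (y axis), 3 arrays each, both relative to the 75th percentile of the array, with the 1599 genes that were higher and the 1853 that were lower colored. Genes far below the diagonal outnumber those far above it, with 139 lower and 24 higher by more than 10-fold.

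The largest increase was that of Gsta1, an alpha-class glutathione S-transferase that conjugates glutathione to electrophiles. Its levels were -5.42, -5.61 and -5.70 in untreated cells, where 1 of 3 arrays was well above background, and 1.87, 1.80 and 1.77 in co-exposed cells, a log2 difference of 7.39 ± 0.06 (limma adjusted p = 9.5e-16). Gsta2, its close paralog, went from -5.07, -6.40 and -6.60 to 0.47, 0.44 and 0.62. Neither gene's levels overlapped between the groups. The 2 probes are printed 5′ to 3′ because they read neighboring parts of near-identical transcripts: the capitals mark a run of 20 bases that both hold, and 27 of the 28 bases that both probes cover were identical, so the genes' shares of the signal are uncertain.
Gsta1: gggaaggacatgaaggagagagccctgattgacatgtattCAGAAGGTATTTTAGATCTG
Gsta2: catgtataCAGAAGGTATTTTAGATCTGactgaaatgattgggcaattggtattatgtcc
The array design places the Gsta2 probe at chr9:78408171-78408230 of build mm7, on the minus strand.

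Other large increases fell in several classes. Robo3, an axon guidance receptor, went from -5.40, -5.47 and -5.11, with 2 of 3 untreated arrays well above background, to -0.16, -0.061 and -0.31 (log2 difference 5.15 ± 0.13). The levels of Car6, a secreted carbonic anhydrase, were -4.18, -3.78 and -4.34 in untreated and 0.36, 0.31 and 0.43 in co-exposed cells. Akr1c18, which inactivates progesterone, went from -1.56, -1.59 and -1.66 to 2.59, 2.49 and 2.52. In none of these did the groups overlap. Secreted ligands were among them, Gdf15, a stress-induced member of the TGF-beta superfamily, at 4.05 ± 0.055, and Areg, the epidermal growth factor receptor ligand amphiregulin, at 3.82 ± 0.11. Ptpn22, a tyrosine phosphatase of lymphocytes, differed by 4.11 ± 0.10, Tnfrsf18, the TNF receptor family member GITR, by 3.66 ± 0.11, and Bglap, the bone matrix protein osteocalcin, by 3.67 ± 0.052. The remaining genes of the 15 largest increases were 1700007K13Rik, Fam110c, the carboxylesterase Ces2e, the serine protease Prss56 and Prl2c5 of the prolactin family, with differences of 3.58 to 4.42. Ces2e lost the call when any single array of these groups was left out, with slide as a random block and with the replicate block. With normexp background correction Gsta1, Gsta2, Robo3, Car6, Fam110c, Ptpn22, Gdf15, Areg, Ces2e, Bglap, Tnfrsf18 and Prss56 lost the call. Over the alternatives run the lowest log2 differences were 1.05 for Areg, 2.05 for Robo3 and 1.70 for Tnfrsf18. Among the 15 largest increases 1700007K13Rik, Akr1c18 and Prl2c5 kept the call in every alternative.

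Fold increases of genes that were not well above background on any untreated array are lower bounds. Mmp15, a membrane-bound matrix metalloproteinase, was at -2.76, -2.83 and -2.80 in co-exposed cells and at least 6.57-fold higher than the lowest measurable signal of untreated arrays. Soat2, which esterifies cholesterol, was at least 7.47-fold higher, Svop, a transporter-like protein of synaptic vesicles, at least 7.03-fold and the epidermal transcription factor Zfp750 at least 4.94-fold. For Serpinb2, the plasminogen activator inhibitor PAI-2, the bound was 3.73-fold. Shisal2b, Rab39b and Ralgps2 also rose from below background, and with normexp background correction 7 of these 8 genes, all but Soat2, turned to the opposite sign, so their sizes rest on how dim signal was treated. In all, 28 of the 1599 genes that were higher were measured in co-exposed cells alone.

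The largest decrease was that of Agtr2, the type 2 angiotensin II receptor. Its levels were 2.83, 2.93 and 2.80 in untreated and -4.74, -4.85 and -4.42 in co-exposed cells, where 2 of 3 arrays were well above background, a log2 difference of -7.52 ± 0.10 and a fold change of -184 (limma adjusted p = 2.31e-14). Haptoglobin, Hp, the plasma protein that binds free hemoglobin, went from 7.81, 7.74 and 7.82 to 0.80, 0.85 and 0.52. Both were separate on all 6 arrays. Dio3, the deiodinase that inactivates thyroid hormone, went from 3.09, 3.07 and 2.93 to -3.98, -3.84 and -4.24, and the cytochrome P450 gene Cyp2f2 from 2.94, 2.99 and 2.92 to -3.53, -3.72 and -3.64. Cxcl14, a chemokine of resting epithelia and fibroblasts, fell by 6.40 ± 0.11 on the log2 scale.

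Several of the 15 largest decreases were genes of the extracellular matrix. Prelp and Aspn, small leucine-rich proteoglycans that bind collagen, differed by -5.69 ± 0.05 and -5.66 ± 0.13, and Dpt, dermatopontin, which organizes collagen fibrils, by -5.66 ± 0.075. Sfrp1, a secreted antagonist of Wnt ligands, differed by -4.81 ± 0.072. Lbp, which presents bacterial lipopolysaccharide to its receptor, and the secreted glycoprotein Lrg1 differed by -5.27 ± 0.073 and -5.24 ± 0.072, and Ggt5, which cleaves glutathione conjugates, by -5.47 ± 0.055. Second probes of Prelp and Ggt5 differed by -4.05 and -3.71. The probe that stands for Fndc1 differed by -5.70, measured on 1 co-exposed array, while a second probe of that gene differed by -0.25, so its decrease depends on the probe. Ecscr and Lrrc17 completed the 15, at -5.11 and -4.89.

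Of the 1853 genes that were lower, 157 were not well above background on any co-exposed array. Steap4, a metalloreductase, was at -0.086, -0.19 and -0.28 in untreated cells and at least 33.7-fold lower in co-exposed cells. The bound was 24.5-fold for Slco2b1, an organic anion transporter that carries steroid sulfates, 32.0-fold for the fibrinogen-like protein Fgl2 and 21.4-fold for the matrix protein vitrin, Vit, of which a second probe differed by -2.57. Aoc3, a copper amine oxidase, fell at least 25.3-fold and Cldn10, a tight junction claudin, at least 22.7-fold.

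**Figure D2:**
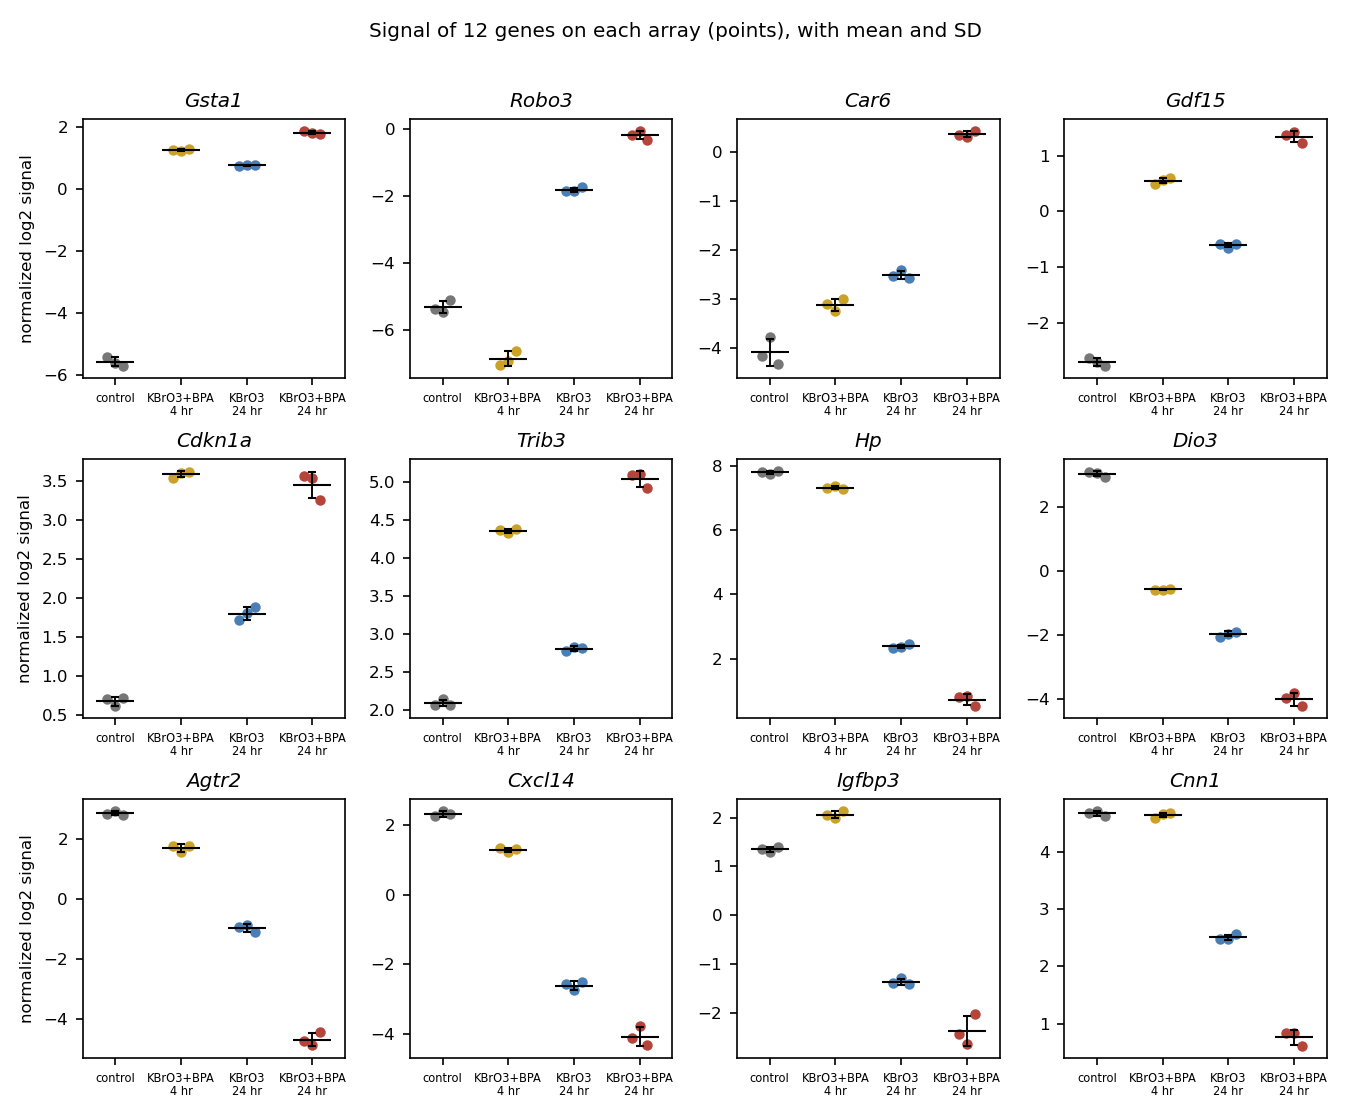
Log2 level relative to the array's 75th percentile (y axis, a scale of its own in each panel) of 12 genes on each array, in untreated cells (control), after co-exposure at 4 hr, with KBrO3 alone at 24 hr and after co-exposure at 24 hr; each point is 1 array, and bars give the mean and SD of 3 arrays. The 24-hr co-exposed points lie apart from the control points in every panel, with Hp at 0.80, 0.85 and 0.52 against 7.81, 7.74 and 7.82.

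Genes under NRF2 rose in part. Of 40 listed targets tested, 19 were higher and 4 lower, with a median difference of 0.57 against -0.034 over all genes. Glutathione synthesis and cystine import gave 4 of 5 members: Slc7a11, the cystine transporter, went from -3.20, -3.06 and -3.30 to -0.84, -0.78 and -0.57, with no overlap. Gclc, the catalytic subunit of the rate-limiting enzyme of glutathione synthesis, differed by 1.82 ± 0.052, its partner Gclm by 0.91 ± 0.051 and glutathione synthetase, Gss, by 1.59 ± 0.067, while glutathione reductase, Gsr, at 0.52 ± 0.078, did not pass. Hmox1, heme oxygenase 1, which opens the heme ring, was at 2.94, 2.90 and 3.06 in untreated and 4.98, 4.97 and 4.88 in co-exposed cells. In the thioredoxin system 4 of 5 members were higher, Srxn1, which repairs overoxidized peroxiredoxins, by 1.62 ± 0.072, the peroxidases Prdx6 and Prdx1 by 1.12 ± 0.038 and 0.98 ± 0.034, and thioredoxin reductase, Txnrd1, by 0.85 ± 0.059. Nqo1, a quinone reductase, differed by 0.74 ± 0.051.

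The glutathione transferases moved apart by class. All 4 alpha-class members were higher, Gsta3 and Gsta4 by 1.90 ± 0.12 and 2.01 ± 0.045, and 3 of 5 mu-class members were lower. Gstm2 went from 1.96, 1.95 and 1.99 to -1.13, -1.09 and -1.36, Gstm3 and Gstm5 differed by -0.97 ± 0.043 and -0.82 ± 0.05, and the microsomal transferase Mgst2 by -1.96 ± 0.048. Gstp1, the pi-class enzyme, was at 0.24 ± 0.061. These genes have close copies, and cross-hybridization between them was not tested. Gsta3 was well above background on 1 of 3 untreated arrays and turned negative with normexp background correction. Under that correction Gsta1, Gsta2 and Gsta4 lost the call. Gstm3 and Gstm5 lost it with scaling to the median, spike-in scaling, normexp correction and the fit of the 6 arrays alone. Gstm2 and Mgst2 kept it in every alternative, so the split by class depends in part on the processing. Of the 19 increases, 6 passed with normexp correction and 6 in a fit of the 6 arrays alone.

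The antioxidant response element is the DNA site of NRF2, and its core was searched as TGACNNNGC on both strands of 300-base windows, from 250 bases before to 50 after each RefSeq start (build GRCm38.p6). It stood in 12 of 34 listed targets with a window, in 16.5% of tested genes and in 12.4% of all promoters. Gsta3 and the exporter Abcc4, which were both higher, are shown with the core in capitals, from chr1:21240423-21240512 on the plus strand and chr14:118706220-118706309 on the minus strand.
Gsta3: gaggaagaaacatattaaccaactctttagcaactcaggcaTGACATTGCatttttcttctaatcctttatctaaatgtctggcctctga
Abcc4: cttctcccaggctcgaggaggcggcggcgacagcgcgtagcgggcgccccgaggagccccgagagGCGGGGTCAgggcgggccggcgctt
The Abcc4 match reads the core on the opposite strand. A match of letters is no evidence of binding.

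Most p53 targets rose. Of 32 listed genes 22 were higher and 2 lower, with a median difference of 1.01. Cdkn1a, which encodes the cyclin-dependent kinase inhibitor p21, went from 0.70, 0.61 and 0.72 to 3.56, 3.54 and 3.27 (log2 difference 2.78 ± 0.073). Mdm2, the ubiquitin ligase that degrades p53, went from 1.11, 0.93 and 0.88 to 3.28, 3.32 and 3.35. Neither overlapped between the groups. Of 10 apoptosis genes 9 were higher, among them Perp, a membrane protein of desmosomes and p53-dependent death, at 2.47 ± 0.087, Pmaip1, the BH3-only protein Noxa, at 2.20 ± 0.068, the nuclease Aen at 2.00 ± 0.032 and Bax at 1.09 ± 0.063. Eda2r, a TNF receptor family member, differed by 3.12 ± 0.054 and cyclin G1, Ccng1, by 2.11 ± 0.092. The exceptions were the death receptor gene Fas, at -1.65 ± 0.062, and Sesn1, at -0.81 ± 0.048, while Ddb2, Xpc and Btg2, at -0.37, 0.38 and 0.26, did not pass.

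Genes of ATF4 rose together, and no gene of folding in the endoplasmic reticulum was called higher on the probe that stands for it. Atf4 itself and its targets made up 18 genes, of which 17 were higher, with a median difference of 1.86. Trib3, a pseudokinase that feeds back on ATF4, went from 2.07, 2.14 and 2.06 to 5.10, 5.11 and 4.92, and Ddit3, the transcription factor CHOP, from 1.83, 1.72 and 1.81 to 3.94, 3.88 and 3.72. Both were separate between the groups. Chac1, which degrades glutathione, differed by 2.38 ± 0.048, the mitochondrial one-carbon enzymes Mthfd2 and Shmt2 by 2.32 ± 0.076 and 2.09 ± 0.075, and asparagine synthetase, Asns, by 1.90 ± 0.055. The member that did not pass was Slc7a5, a transporter of large neutral amino acids, at 1.15 ± 0.12. Of 17 genes of endoplasmic reticulum folding 3 were lower (17.6%, against 14.1% of all genes): the disulfide isomerases Pdia4 and Pdia6 at -1.28 ± 0.078 and -0.61 ± 0.043, and Xbp1, the transcription factor of the unfolded protein response, at -0.60 ± 0.048. Hspa5, the chaperone BiP, was at 0.29 ± 0.07. Another probe of Edem1 was called higher at 0.86, against -0.61 for the one that stands for the gene. For Dnajc3 another probe was called lower at -0.60, against 0.20, so these calls depend on the probe. Pdia4 and Pdia6 lost the call with slide as a random block, and Xbp1 lost it with the replicate block and without co-exposed or untreated replicate 3.

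Heat shock and proteasome genes rose in part. Of 18 heat shock genes 6 were higher, among them Hspa1a, an inducible HSP70, at 1.41 ± 0.043 and the mitochondrial chaperonin Hspd1 at 1.26 ± 0.039, and 1, the small heat shock protein Cryab, was lower at -0.80 ± 0.059. Of 31 proteasome subunits 12 were higher and none lower, 10 of 17 in the 19S cap and 2 of 14 in the 20S core, with Psmd11 and Psmc4, both of the cap, at 1.01 ± 0.039 and 1.01 ± 0.043. None of the 12 passed with spike-in scaling, with normexp correction or in the fit of the 6 arrays alone, and of the 6 heat shock increases 1, 3 and 1 did. Ribosome biogenesis genes rose too: 23 of 30 genes were higher, all 30 were above 0, and the median difference was 1.24. Ncl, nucleolin, the abundant nucleolar RNA-binding protein, went from 5.06, 5.03 and 5.13 to 6.77, 6.70 and 6.61, Rrp12 and Wdr43, which take part in processing of pre-ribosomal RNA, differed by 2.14 ± 0.087 and 1.92 ± 0.055, and Nhp2, a protein of H/ACA ribonucleoproteins, by 1.62 ± 0.034. With spike-in scaling 16 of the 23 passed, and in the fit of the 6 arrays alone 8.

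DNA repair transcripts were above or near their untreated levels. The study had chosen 32 repair genes on these samples, so their direction is not independent evidence: 16 were higher and none lower, with a median difference of 0.73. In base excision repair Fen1, the flap endonuclease, went from 1.16, 1.16 and 1.24 to 2.45, 2.35 and 2.47, and Ogg1, the glycosylase for 8-oxoguanine, from 1.22, 1.17 and 1.02 to 2.01, 2.14 and 1.86. Neither overlapped. Mutyh, which removes adenine opposite 8-oxoguanine, differed by 0.66 ± 0.059, the abasic endonuclease Apex1 by 0.82 ± 0.037 and Parp1 by 0.73 ± 0.054, while the other glycosylases Neil1, Neil3 and Mpg, at 0.35, -0.48 and 0.07, the polymerase Polb, at 0.14, and the scaffold Xrcc1, at 0.39, did not pass. Of 11 genes of double-strand break and replication-linked repair 7 were higher, among them the exonuclease Exo1 at 1.09 ± 0.059 and Xrcc5, which encodes Ku80, whose partner Ku70 is absent in these cells, at 0.91 ± 0.062. Nucleotide excision repair gave 3 of 6, with the endonuclease Ercc5 at 0.85 ± 0.045.

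Among 59 further repair genes tested that the study had not listed none was lower, and the median was 0.26. Of these genes 10 were higher, 16.9% against 12.1% of all genes. They included Msh3, a mismatch recognition protein, at 1.09 ± 0.06, Rad54l, a motor protein of homologous recombination, at 1.04 ± 0.093, Parp2 at 0.88 ± 0.054, and Prkdc, the kinase that acts with Ku at DNA ends, at 0.72 ± 0.04. A second probe of Rad18, a ubiquitin ligase of translesion synthesis, was at -0.20, against 1.20 for the one that stands for the gene. Ogg1 lost the call with slide as a random block, without co-exposed replicate 1 and without untreated replicate 2, and Mutyh and Rad54l with both blocks and without any single co-exposed array or untreated replicate 1 or 2. None of the 16 and 10 increases passed with spike-in scaling or in the fit of the 6 arrays alone.

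**Figure D3:**
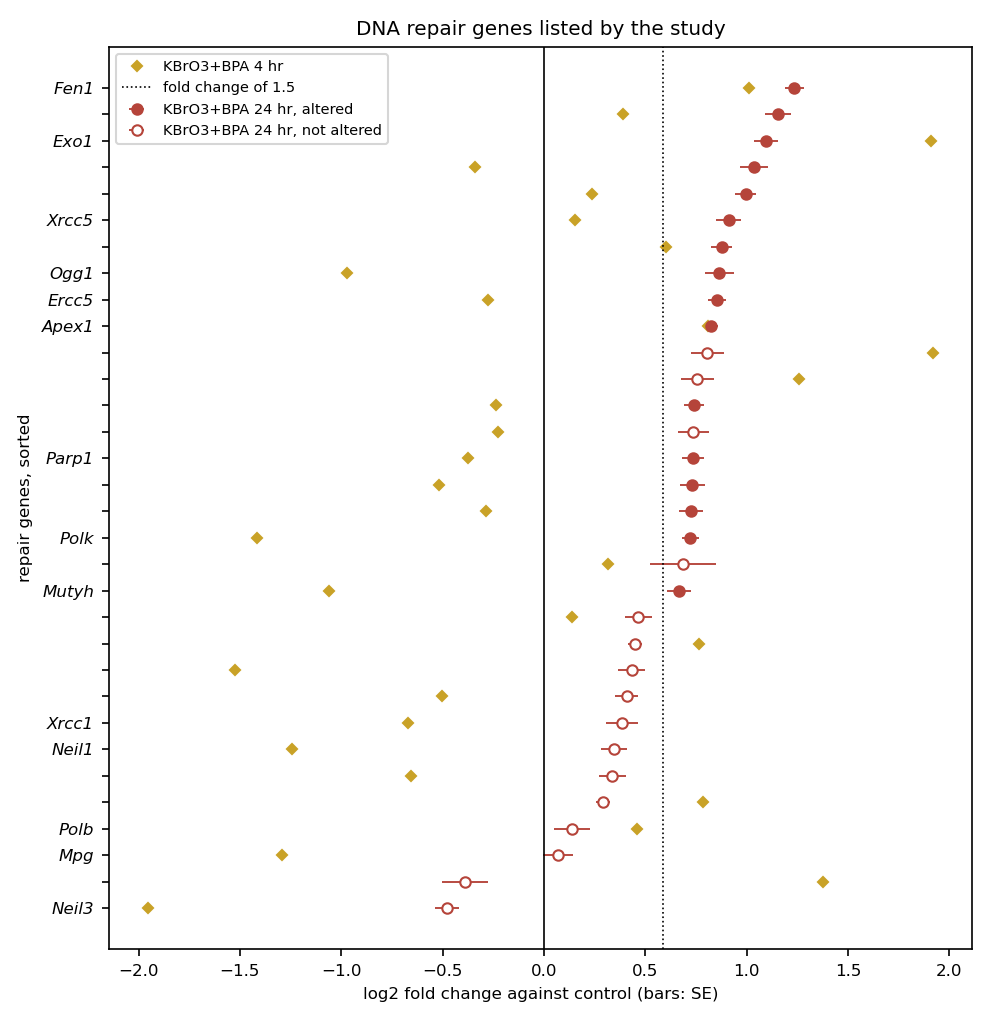
Log2 difference from untreated cells (x axis) of each of the 32 repair genes of the study after 24 hr of co-exposure (circles with the standard error, filled where altered) and after 4 hr (diamonds), 3 arrays in each group; both share the untreated arrays, the dotted line marks a 1.5-fold increase, and names are given for the genes described in the text. The 24-hr circles lie to the right of 0 for 30 genes, with Fen1 highest at 1.24 and Neil3 lowest at -0.48.

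Replication genes rose in part. Of 47 tested 15 were higher and none lower, with a median difference of 0.44, among them the replication factor Mcm10 at 1.35 ± 0.044 and Cdc45 and Orc1, of the replicative helicase and the origin recognition complex, at 1.06 ± 0.046 and 1.05 ± 0.048. A second probe of the licensing factor Cdc6 was at -0.13, against 1.03. Of the 15 increases 1 passed with spike-in scaling, 4 with normexp correction and none in the fit of the 6 arrays alone. E2F factors drive this group, and a relaxed E2F site, TTTNNCGC on either strand, stood in 15 of 37 members with a window, against 9.36% of tested genes and 5.17% of all promoters. Orc1 is shown with its site in capitals, from chr4:108579364-108579453 on the plus strand.
Orc1: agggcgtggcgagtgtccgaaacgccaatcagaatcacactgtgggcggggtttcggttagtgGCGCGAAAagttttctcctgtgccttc
Mitosis differed from it: of 38 genes 3 were higher and 2 lower than in untreated cells (7.89% and 5.26%, against 12.1% and 14.1% of all genes). Mybl2, a transcription factor of the cell cycle, and topoisomerase Top2a were higher at 1.70 ± 0.063 and 0.94 ± 0.066, and cyclin B2, Ccnb2, and the midzone protein Prc1 were lower at -0.72 ± 0.05 and -0.63 ± 0.033.

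Acute phase and complement genes fell together. Of 28 tested 20 were lower and 2 higher, with a median difference of -2.61, and both that were higher, Ddit3 and Cebpg, are C/EBP transcription factors and not acute phase proteins. Saa3, serum amyloid A3, went from 4.56, 4.48 and 4.51 to 0.42, 0.31 and 0.40, and the protease inhibitor Serpina3n from -0.47, -0.59 and -0.44 to -4.56, -4.41 and -4.80. Neither overlapped between the groups. Saa2 was at least 11.3-fold lower, since no co-exposed array measured it. In the complement system 7 of 9 genes were lower, with C3, its central component, at -3.13 ± 0.073, factor B, Cfb, at -3.90 ± 0.049, and the C1 inhibitor Serping1 at -4.09 ± 0.064. C/EBP factors bind sites in such promoters, and a relaxed C/EBP dyad, TTNNGNAA, stood in 13 of 19 members with a window, against 35.8% of tested genes and 40.7% of all promoters. Saa3 is shown from chr7:46715727-46715816, minus strand, with matches in capitals.
Saa3: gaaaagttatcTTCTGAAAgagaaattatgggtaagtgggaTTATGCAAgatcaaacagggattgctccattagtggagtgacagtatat

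Chemokines fell as well. Of 28 chemokine and cytokine genes 19 were lower and 3 higher, with a median of -1.78. Ccl9, a chemokine of myeloid cells, differed by -3.45 ± 0.16, Cxcl5, which attracts neutrophils, by -2.68 ± 0.11, and Ccl2, which attracts monocytes, by -1.23 ± 0.051. Csf2, the growth factor GM-CSF, was at least 1.97-fold lower and eotaxin, Ccl11, at least 1.35-fold lower, with no co-exposed array well above background. Il6 and the alarmin Il33 differed by -1.47 ± 0.055 and -2.00 ± 0.10. The 3 that were higher were Cxcl10, an interferon-induced chemokine, at 0.78 ± 0.062, the IL-33 receptor Il1rl1 at 1.14 ± 0.055, and Il18r1, at least 2.50-fold above the untreated floor, a gene that turned negative with normexp correction. NF-kB is the factor that drives many of these genes. Of 14 of its subunits and inhibitors 3 were lower (21.4%, against 14.1% of all genes). These were Nfkbie, Bcl3 and Tnfaip3, at -1.65 ± 0.048, -1.46 ± 0.092 and -1.35 ± 0.059. The kinase Ikbkb alone was higher (7.14%, against 12.1%), at 0.68 ± 0.067, and the list median changed sign with scaling to the median. Ikbkb lost the call with both blocks and when any array but co-exposed replicate 2 was left out. Of 32 interferon response genes 6 were higher (18.8%, against 12.1% of all genes), led by Oasl1, an oligoadenylate synthetase-like protein, at 1.31 ± 0.05. Oas2 alone was lower (3.13%, against 14.1%), at -0.62 ± 0.03. With slide as a random block or the replicate block 3 of the 6 kept the call, as did 1 with spike-in scaling, and Oas2 lost it with scaling to the median.

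The extracellular matrix showed the most uniform decrease of the lists described here, with 36 of 43 genes lower, none higher and a median difference of -1.98. All 8 fibrillar collagens tested were lower: Col1a1, the main chain of type I collagen, went from 7.70, 7.59 and 7.79 to 6.08, 6.11 and 6.01, and Col3a1 from 7.35, 7.36 and 7.39 to 5.07, 4.91 and 5.14. Levels were separate for both. Lum, lumican, a proteoglycan that spaces collagen fibrils, differed by -4.45 ± 0.041, thrombospondin 1, Thbs1, an activator of latent TGF-beta, by -3.61 ± 0.087, and the lysyl oxidases Lox and Loxl2, which cross-link collagen, by -2.08 ± 0.094 and -2.68 ± 0.043. Of the genes that did not pass, fibronectin, Fn1, was at -0.37 ± 0.061 and Col18a1 at 0.27 ± 0.079. Of 20 matrix proteases and inhibitors 13 were lower, with the gelatinase Mmp2 at -2.01 ± 0.061 and the inhibitor Timp3 at -1.84 ± 0.11, and 2 were higher, Mmp15 and the stromelysin Mmp10, the latter at 1.76 ± 0.071. Fibroblast markers, which include matrix genes, fell beside these, and their part was not tested.

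Contractile genes were lower in 17 of 26 tested and higher in none, with a median of -1.76. Cnn1, calponin of smooth muscle, went from 4.68, 4.71 and 4.62 to 0.83, 0.85 and 0.61, and Myl9, a myosin regulatory light chain, from 6.11, 6.13 and 6.14 to 2.33, 2.31 and 2.17. Both were separate between the groups. Cardiac actin, Actc1, differed by -3.51 ± 0.065, Tagln, an actin-binding protein of smooth muscle, by -2.67 ± 0.10, and the fast myosin chain Myh2 was at least 9.02-fold lower. Smooth muscle actin, Acta2, differed by -1.31 ± 0.11 on the probe that stands for it and by -4.62, -1.60 and -4.44 on the other 3, all of which were called lower, so the size of its decrease depends on the probe.

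Growth factor genes split. Of 34 genes of insulin-like growth factor and TGF-beta signaling 23 were lower and 3 higher, with a median of -1.28, and 9 of the 10 insulin-like growth factor genes were lower. Igf1, the growth factor itself, went from -1.02, -1.14 and -1.02 to -4.25, -4.35 and -4.31, and its carrier Igfbp3 from 1.35, 1.29 and 1.39 to -2.43, -2.65 and -2.03. Groups did not overlap for either. Igfbp5, a second carrier, was at least 5.43-fold lower. The ligand Tgfb2 differed by -3.74 ± 0.082, and those that were higher were Gdf15, Inhba, a subunit of activin, at 1.52 ± 0.057, and the BMP antagonist Grem1 at 1.09 ± 0.065.

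Vasoactive signaling had 9 of 19 genes lower. Edn1, endothelin 1, was at -1.82, -1.77 and -1.99 in untreated cells and, unmeasured on the co-exposed arrays, at least 10.5-fold lower. The type 1 angiotensin receptor Agtr1a differed by -4.76 ± 0.071, measured on 2 co-exposed arrays (-3.04 on a second probe), Npr3, which clears natriuretic peptides, by -3.73 ± 0.051 and adrenomedullin, Adm, by -3.03 ± 0.044. The 1 gene that was higher was Ramp3, a receptor activity-modifying protein of adrenomedullin receptors, at 1.20 ± 0.061. Axon guidance genes followed the same split, with 11 of 24 lower, among them the ligand Slit3 at -3.77 ± 0.036 and the semaphorins Sema3d, Sema3b and Sema3f at -2.44 ± 0.076, -2.29 ± 0.071 and -2.20 ± 0.08, and Robo3 alone higher.

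Lipid genes fell. Cholesterol synthesis and uptake had 17 of 26 genes lower and none higher, with a median of -1.24. Hmgcs1, which makes HMG-CoA, went from 4.50, 4.52 and 4.38 to 2.30, 2.38 and 2.26, with no overlap. Idi1, an isomerase of the pathway, differed by -2.01 ± 0.11 and Srebf2, its transcription factor, by -1.74 ± 0.084. Of 19 fatty acid and adipocyte genes 10 were lower, with lipoprotein lipase, Lpl, at -2.48 ± 0.17 and the fatty acid carrier Fabp4 at -1.86 ± 0.049. Among 24 genes of cytochromes P450 and of steroid or thyroid hormone metabolism 11 were lower and 2 higher. Hsd11b1, which regenerates glucocorticoid, went from 0.58, 0.67 and 0.62 to -3.86, -3.99 and -3.89.

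Oxidative phosphorylation and autophagy had few members altered. Of 48 nuclear genes of oxidative phosphorylation 1, cytochrome c1, Cyc1, was higher at 0.91 ± 0.06, and the list's median of -0.0045 changed sign with several scalings. Cycs and Atp5b, at 0.92 and 0.16, were not called on the probes that stand for them. Their other probes were called higher, at 0.99 and 0.95 for Cycs and 0.90 and 0.59 for Atp5b, so this count depends on the probe. Of 37 autophagy and lysosome genes 3 were higher, with the autophagy receptor Sqstm1 at 1.07 ± 0.085, and 3 lower, 8.11% each. Histone genes had 5 of 22 lower and 1 higher (22.7% and 4.55%, against 14.1% and 12.1% of all genes). Among the replication-dependent genes H1f2, H2bc4 and H2bc12 were lower, at -1.30 ± 0.078, -1.28 ± 0.047 and -1.03 ± 0.054. Of 31 immediate early and feedback genes 11 were higher and 4 lower: the phosphatase Dusp2 and the AP-1 subunit Fosl1 differed by 3.01 ± 0.069 and 2.57 ± 0.061, and the zinc finger factor Egr2 by -1.91 ± 0.036, while its relative Egr3, not well above background on any co-exposed array, was at least 2.42-fold lower.

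**Figure D4:**
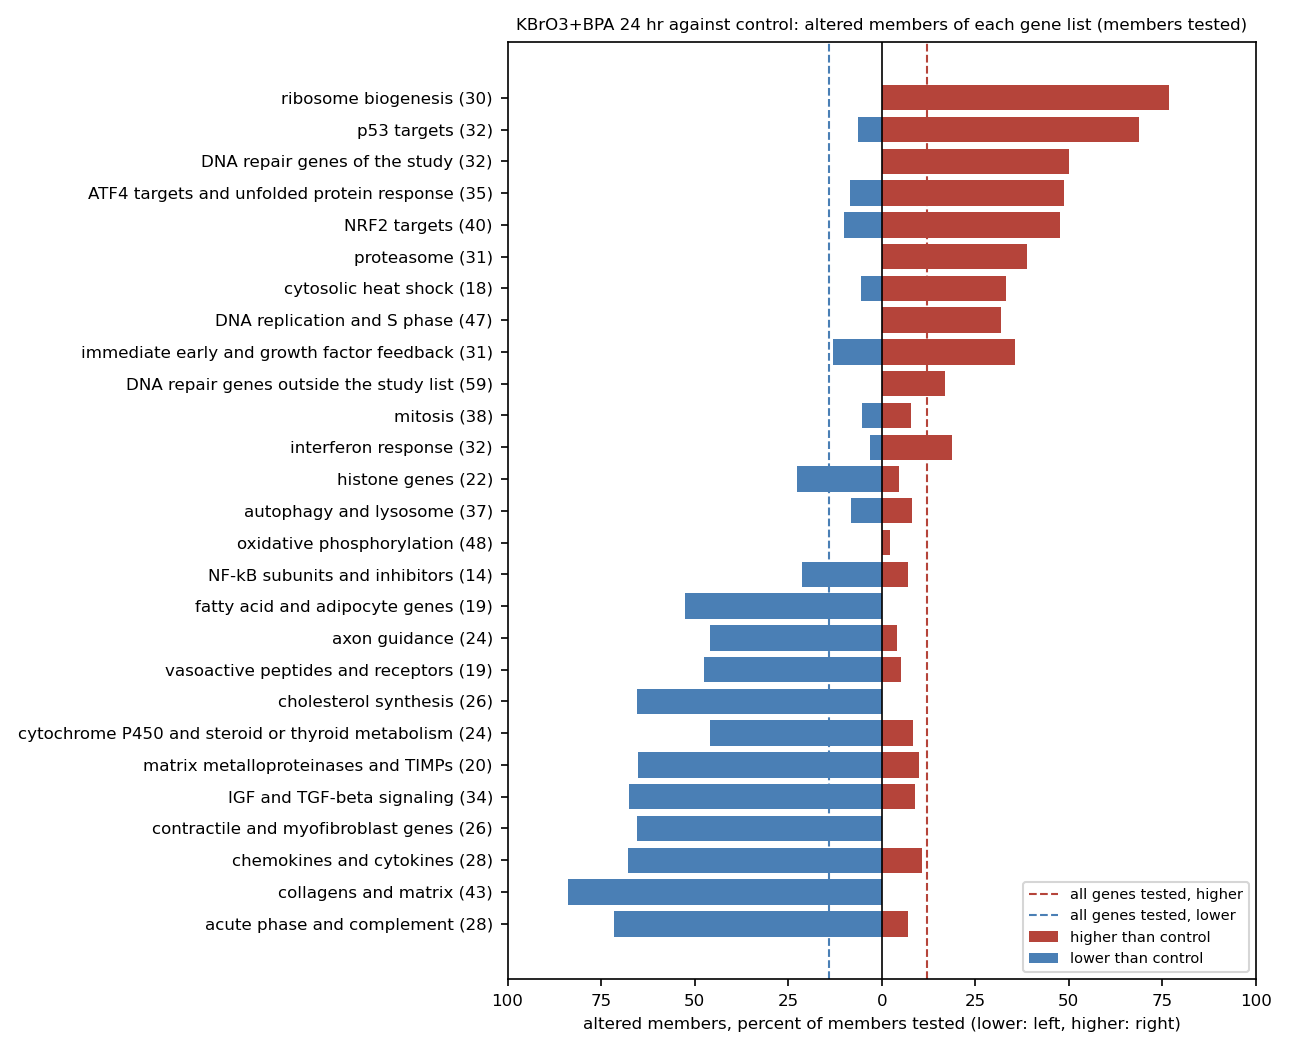
Altered members of each gene list as a percent of its members tested (x axis), lower than in untreated cells to the left and higher to the right of 0, with the number tested in parentheses and the shares of all genes tested, 14.1% and 12.1%, as dashed lines. Collagens and matrix reach farthest to the left, with 36 of 43 members, and ribosome biogenesis farthest to the right, with 23 of 30.

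What BPA added to KBrO3 at 24 hr is addressed by the direct test of co-exposed cells against cells given KBrO3 alone. It called 1077 genes (8.18%), 569 higher (4.32%) and 508 lower (3.86%) in co-exposed cells. Of the 1599 genes that were higher than in untreated cells 296 were also higher than with KBrO3 alone and 8 were lower, and of the 1853 that were lower 373 were also lower than with KBrO3 alone and 35 were higher. Slide 4 held co-exposed replicates 1 and 2 and KBrO3 replicates 2 and 3. The contrast of these 4 arrays, with the spread estimated together with the arrays of the other groups, called 1066 genes, against 999 with slide as a fixed block over all arrays. With scaling to the median 69.6% of the 771 calls were higher, against 52.8% of 1077, and with spike-in scaling 11.3% of 310. The fit of these 6 arrays alone called 55.

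Stress genes of ATF4 and p53 were higher with BPA added. Of the 18 genes of ATF4 and its targets 15 were higher than with KBrO3 alone, with a median difference in the whole list of 0.79, and of 32 p53 targets 18 were, against 4.32% of all genes. Trib3 was at 2.77, 2.83 and 2.81 with KBrO3 alone and 5.10, 5.11 and 4.92 with both agents, and Cth, which makes cysteine from cystathionine, at -0.39, -0.31 and -0.36 and 1.84, 1.77 and 1.86. Cdkn1a was at 1.72, 1.80 and 1.89 and 3.56, 3.54 and 3.27. The 3 genes' levels did not overlap, which held for 54.5% of all genes in this test, with co-exposed cells above in 30.9% and below in 23.6%. Chac1 differed between the treatments by 1.75 ± 0.048, Pmaip1 by 1.65 ± 0.068 and Eda2r by 1.82 ± 0.054. Of 40 NRF2 targets 14 were higher, with Hmox1 at 2.10 ± 0.063, Slc7a11 at 1.67 ± 0.072 and Gss at 0.70 ± 0.067. With the slide 4 arrays as the 2 groups 18 of the 18 increases among ATF4 and folding genes together, 16 of the p53 list's 18 and 10 of the NRF2 list's 14 were called, and in the fit of 6 arrays 3, 2 and 2 were. Over all genes, spike-in scaling left 35 increases in this test and normexp correction 66, against 569. How many members of these lists they include is not given here, so the increases depend on the processing.

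Single genes stood out in this test beyond the lists. Car6 was at -2.53, -2.42 and -2.58 with KBrO3 alone, and the difference of the co-exposed cells from it was 2.88 ± 0.12. The secreted angiopoietin-like protein Angptl6 differed by 2.58 ± 0.057, the mitochondrial protein Chchd10 by 2.22 ± 0.11 and Mlip, a muscle protein that binds lamin, by 3.35 ± 0.16. Mlip was not called against untreated cells, where its log2 difference ran from -0.54 to 1.05 over the alternatives, while Angptl6 and Chchd10 were called higher. Lower than with KBrO3 alone were Agtr2 by -3.71 ± 0.10, Aspn by -2.75 ± 0.13, Ndnf, a secreted neurotrophic factor, by -2.65 ± 0.10, the ATP-gated channel P2rx5 by -2.45 ± 0.06, and Edn1, at least 4.93-fold lower. Of 43 matrix genes 19 were lower and 1 higher, among the lower Thbs1 at -2.12 ± 0.087, and of 34 growth factor genes 10 were lower, with Tgfb2 at -1.70 ± 0.082 and Igf1 at -1.62 ± 0.058. With scaling to the median 5 of the 19 and 7 of the 10 were called.

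Mitotic genes were lower with BPA added: 22 of 38 were lower than with KBrO3 alone and none higher, against 3.86% of all genes, with a median of -0.68. Ccnb1, cyclin B1, was at 2.29, 2.35 and 2.38 with KBrO3 alone, 1.57, 1.46 and 1.55 with both agents and 1.36, 1.32 and 1.39 in untreated cells. Kif11, the spindle motor Eg5, was at 0.16, 0.19 and 0.14, -0.95, -1.03 and -0.84 and -0.52, -0.47 and -0.54 in the same order. For both genes the levels with both agents lay below those with KBrO3 alone. The cell cycle homology region is a promoter element of such genes, and its letters TTTGAA, on either strand, stood in 21 of 32 members with a window, against 14.5% of tested genes and 17.9% of all promoters. Kif11 and Prc1, which differed between the treatments by -1.11 ± 0.05 and -1.01 ± 0.033, are shown with it in capitals, from chr19:37376292-37376381 and chr7:80294386-80294475, both on the plus strand.
Kif11: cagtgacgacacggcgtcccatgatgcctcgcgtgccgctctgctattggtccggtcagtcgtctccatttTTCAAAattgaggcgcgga
Prc1: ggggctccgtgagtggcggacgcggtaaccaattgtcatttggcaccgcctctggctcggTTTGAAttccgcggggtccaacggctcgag
The list's calls were sensitive to scaling: 3 of the 22 were called with scaling to the median, where the median was -0.51, 19 with the slide 4 arrays as the 2 groups and none in the fit of 6 arrays. Replication, ribosome biogenesis and proteasome genes had no member called in either direction in this test.

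**Figure D5:**
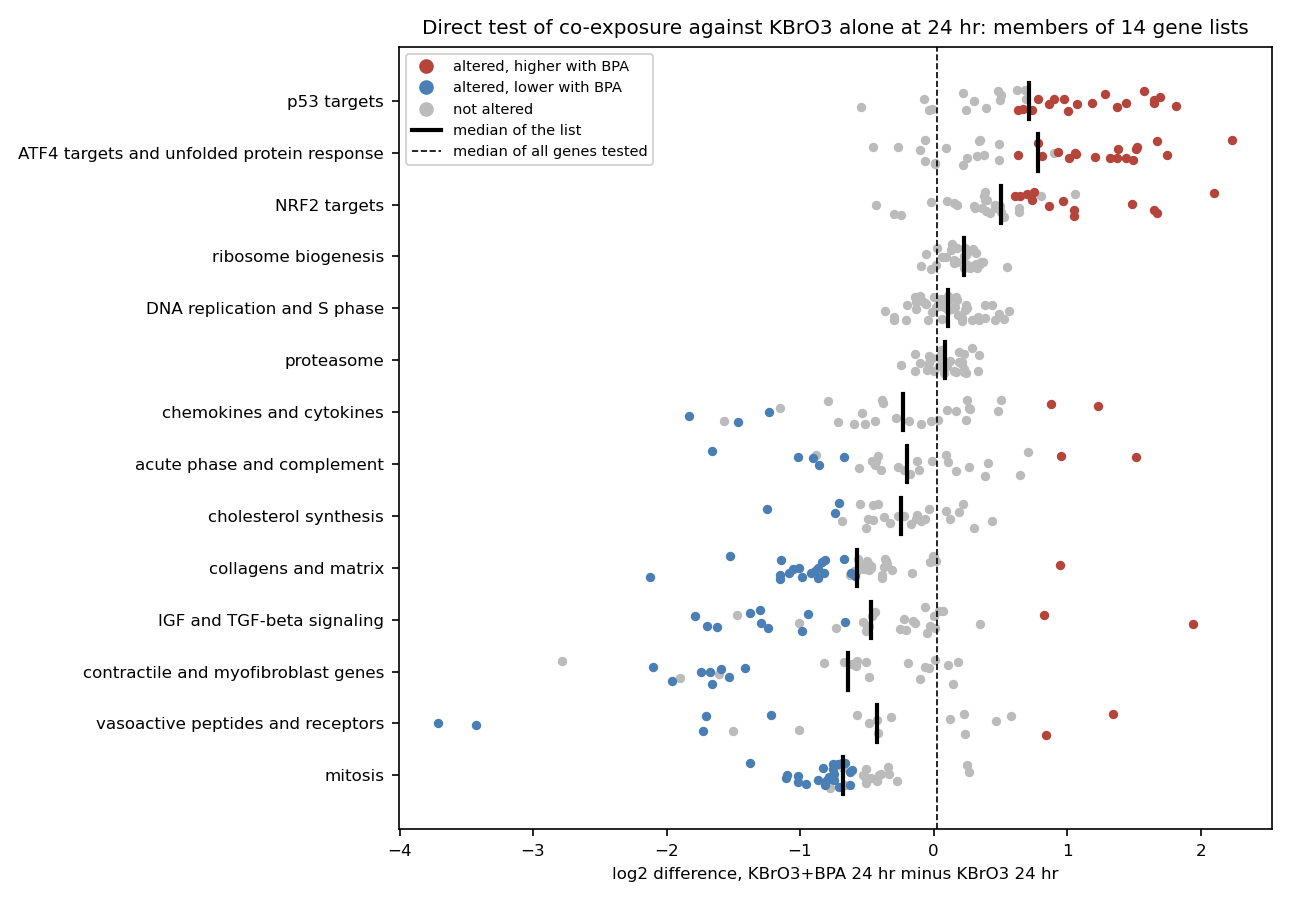
Log2 difference between co-exposed cells and cells given KBrO3 alone at 24 hr (x axis), 3 arrays each, for the members of 14 gene lists, 1 point per gene, colored where altered, with the median of each list as a bar and that of all genes tested as a dashed line. Points of the p53, ATF4 and NRF2 lists lie mostly to the right, and mitotic genes mostly to the left, with a median of -0.68.

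Between 4 and 24 hr of co-exposure 4951 genes differed (37.6%), 2609 higher (19.8%) and 2342 lower (17.8%) at 24 hr. Of the calls 52.7% were higher at 24 hr, against 78.9% with scaling to the median and 67.8% with spike-in scaling, and with slide as a fixed block 2701 genes were called. The early response had subsided in part: of 40 NRF2 targets 21 were lower at 24 than at 4 hr, and Hmox1 was at 9.36, 9.40 and 9.18 at 4 hr, with 1 of these spots saturated, against 4.98, 4.97 and 4.88 at 24 hr. Slc7a11 was at 2.42, 2.50 and 2.49 and -0.84, -0.78 and -0.57. For both genes the 24-hr levels lay below the 4-hr levels and above those of untreated cells; over all genes the times were separate in 84.6%, with 24 hr above in 39.7% and below in 44.9%. Of 31 immediate early genes 29 were lower at 24 hr, with Ptgs2, cyclooxygenase 2, at -5.00 ± 0.063 and Areg at -2.55 ± 0.11, and of 30 ribosome biogenesis genes 17 were.

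Other groups were higher at 24 than at 4 hr. Of 38 mitotic genes 35 were higher, with a median of 1.19, and of 32 repair genes of the study 20. Ogg1 was at 0.20, 0.13 and 0.17 at 4 hr and 2.01, 2.14 and 1.86 at 24 hr, and Mutyh at -2.25, -2.27 and -2.36 and -0.48, -0.61 and -0.61. Both were below untreated cells at 4 hr and above them at 24 hr. Cholesterol synthesis ran the other way: 20 of 26 genes were lower at 24 than at 4 hr, and Hmgcs1 was at 7.17, 7.07 and 7.04 at 4 hr, above the untreated 4.50, 4.52 and 4.38, and at 2.30, 2.38 and 2.26 at 24 hr. Of 43 matrix genes 39 were lower at 24 hr and of 28 acute phase genes 22, against medians at 4 hr of -0.13 and -0.042 relative to untreated cells.

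Beside the co-exposure, the values of each agent alone at 24 hr can be set out for its leading genes. KBrO3 alone shares the untreated arrays, and BPA alone was measured in the second set against untreated cells of its own, so no test joins them. Hp differed from untreated cells by -7.07 after co-exposure, -5.41 with KBrO3 alone and 1.92 with BPA alone, and Saa3 by -4.14, -3.71 and 4.67. For these acute phase genes BPA alone stood on the other side of 0 (limma adjusted p = 0.00335 and 0.00101). Agtr2 differed by -7.52, -3.81 and -3.28 in the same order, Npr3 by -3.73, -2.03 and -3.31, and Car6 by 4.47, 1.59 and 4.01. Gsta1 differed by 7.39, 6.34 and 0.67, the last with an adjusted p of 0.598. Trib3 and Cth differed by 2.95 and 1.95 after co-exposure, 0.72 and -0.22 with KBrO3 alone, and 1.94 and 2.81 with BPA alone.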

How the data were processed

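RNA of Ku70-/- mouse embryonic fibroblasts was hybridized by the authors, as Cy3-labeled cRNA, to Agilent Whole Mouse Genome arrays with 1 color, with 3 biological replicates per group per the study's methods. Per the file headers, Feature Extraction 9.5.3.1 made the scanner files of the set of 15 arrays and 12.0.0.7 those of the other 9. The deposited values are intensities that the software had corrected for background, with no scaling between arrays, and the deposited series table held the same values. Only log2 signals are compared here: from each log2 intensity the 75th percentile of that array's non-control spots was subtracted, outlier spots were left out, and 25198 probes well above background on all 3 arrays of either group were fitted with limma 3.58.1 in R 4.3.3 (all 5 groups of the set, no covariate). The 3 contrasts were tested as in the report. The second set was fitted on its own. Labels give BPA alone as 24 hr and the methods as a longer exposure by the hour of BPA before KBrO3. p-values measure the spread between these arrays, whose number limits the precision. With slide as a random block the correlation of arrays on 1 slide was 0.639. The main fit treats the arrays as independent, so its standard errors and p-values take no account of the slide.

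Of 41174 probes, 8440 carried no current gene name. A gene is represented by 1 probe, the tested probe with the highest mean over the 15 arrays. Members and gene lists were chosen with earlier results of these data known. Named were the 15 largest increases and decreases, the 8 largest bounds each way, the 6 largest differences each way in each direct test, up to 6 altered members a list and direction, the study's repair genes and the genes it names. Further list members were picked after their values were seen, to stand for a role. Prg4, among the genes the study names, is not analysed here, and some genes that the rule names are not reported here. Where no array of a group was well above background, fold differences are bounds against, per array, whichever is higher, the dim probe itself or the dimmest probe still well above background. The fit was tested on simulated data. Replicate numbers did not pair the arrays: correlations of same-numbered residuals ran from -0.281 to 0.0702. Alternatives covered scaling, background correction, filters, outlier spots, threshold, the methods' error-weighted analysis of variance, arrays in the fit, slide and replicate blocks, single arrays left out and the choice of probe. RefSeq promoter sequences of build GRCm38.p6 were searched with Python 3.11.15.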

Additional observations from a re-analysis of the deposited data

Results flagged for a closer look

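Among the genes named by rule and reported here, 16 were altered in opposite directions against untreated cells at 4 and 24 hr of co-exposure. A gene was kept only where the difference between the times was also called, so the p-values of that difference are no separate support. Some were named for the size of this same difference, and the share among all genes tested is not given here. Values are log2 differences of 24 minus 4 hr in the same limma fit, whose adjusted p-values lay between 5.02e-15 and 1.29e-10. Higher than untreated at 24 hr and lower at 4 hr were Robo3 at a fitted 6.70, 1700007K13Rik at 5.14, Perp at 3.55, and the DNA repair genes Polk, Ogg1 and Mutyh at 2.14, 1.84 and 1.73. Polk encodes a translesion polymerase. Robo3 was not well above background on any 4-hr array, so it was at least 38.4-fold higher at 24 than at 4 hr, and its lower 4-hr level is a difference of dim signals. The 24-hr call of Mutyh was lost in 11 of 19 alternatives, among them each co-exposed array left out and both blocks, and that of Ogg1 in 6, among them slide as a random block and co-exposed replicate 1 or untreated replicate 2 left out.

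Lower at 24 hr and higher at 4 hr were the cholesterol genes Hmgcs1 and Idi1, at -4.78 and -4.51, and genes induced early by growth factors, Egr3, Egr2 and Dusp1, at -4.32, -3.42 and -2.19. The group also held Csf2 at -5.85, Aldh1a3, which makes retinoic acid, at -5.82, the organic anion transporter Slco4a1 at -4.66, Col27a1 at -4.20 and Id4, an inhibitor of basic helix-loop-helix factors, at -3.07. Csf2 and Egr3 were not well above background on any 24-hr array, so their differences are fitted values of dim signal, with bounds of 13.7-fold and 7.70-fold. Aldh1a3 lost the 24-hr call in 13 of 19 alternatives, among them both blocks, quantile and median scaling, and every single array left out but co-exposed replicate 2. Slco4a1 was also higher than untreated with KBrO3 alone at 24 hr and lower after co-exposure, with a difference between the treatments of -2.73. All of these comparisons share the 3 untreated arrays, and the groups lie in part on different slides: with slide as a random block, Ogg1, Mutyh and Aldh1a3 lost the 24-hr call, and the 4-hr calls were not examined under that block. Groups of 3 arrays were not examined for outlying arrays.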

How the results depend on the processing

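Against the 3452, 1077 and 4951 genes altered relative to untreated cells, KBrO3 alone and the 4-hr co-exposure, scaling to spike-in probes gave 1437, 310 and 2472 genes, normexp background correction 1048, 138 and 1576, and a fit of the 6 arrays compared alone 765, 55 and 1269, where fewer arrays estimate the spread. Benjamini-Hochberg adjusted p below 0.05 gave 5383, 1879 and 7304. Leaving out each array in turn gave 2843 to 3505, 788 to 1222 and 4121 to 5038. Slide as a random block gave 2449, 1333 and 4345, and slide as a fixed block, added after seeing the data, 999 for KBrO3 alone and 2701 for the 4-hr co-exposure. The replicate block gave 2830, 795 and 4155, and it changed the call of 18 of the 231 named genes that were altered. Of these 231, 89 kept call and direction in every alternative run, 140 lost the call in at least 1, and 10 turned with normexp correction: Svop -0.043, Mmp15 -0.14, Shisal2b -0.16, Zfp750 -0.32, Rab39b -0.43, Dusp4 -0.48, Ralgps2 -0.59, Serpinb2 -0.68, Gsta3 -0.68 and Il18r1 -0.89. The median of all genes turned to 0.043 with quantile normalization, 0.28 with scaling to the median and 0.013 with probes measured in both groups, and that of oxidative phosphorylation to 0.069, 0.31, 0.32 and 0.025 with quantile normalization, scaling to the median, normexp correction and slide as a random block, and ran from -0.029 to 0.022 without single arrays. The cause of these changes was not tested. Of 1853 decreases 157 are bounds, since co-exposed signal was not well above background.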

Other observations

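Some altered genes of autophagy and lipid metabolism have not been described above, though the autophagy list's shares of 8.11% higher and 8.11% lower lay below those of all genes. Atg7 and Atg5, which conjugate autophagosome proteins, differed from untreated cells by 1.13 ± 0.082 and 0.72 ± 0.049, though a second probe of Atg7 was at -0.24, and the mitophagy receptor Bnip3l, the phosphoinositide-binding protein Wipi1 and the lysosomal protease Ctsb differed by -0.73 ± 0.043, -0.72 ± 0.068 and -0.68 ± 0.051. A second probe of Bnip3l, at -0.27, was not called. All of these genes lost the call with normexp correction and in the fit of the 6 arrays alone. Bnip3l, Wipi1 and Ctsb also lost it with median and spike-in scaling, Atg5 with spike-in scaling and Atg7 with slide as a random block. Wipi1 lost it in 12 of 19 alternatives, among them both blocks and each untreated array left out. Of the fatty acid and adipocyte genes that were lower, the lipid carrier Apod went from 3.22, 3.22 and 3.12 to 0.70, 0.61 and 0.46, with no overlap, and the desaturase Scd2 and the elongase Elovl6 differed by -1.61 ± 0.076 and -1.37 ± 0.045.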
